A study of Mus musculus with 11 samples.

Results

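The genes described are 10 members of the ATF4 arm of the integrated stress response, out of 42375 genes named in a count table of mouse macrophage RNA. They were taken by name and are the transcription factor genes Atf4 and Ddit3, the feedback genes Trib3 and Ppp1r15a, the amino acid and one-carbon metabolism genes Asns, Psat1, Shmt2 and Mthfd2, and the stress target genes Chac1 and Sesn2. The members and the further pathway lists were chosen with earlier results of these data known. The shares of all genes printed beside their counts are therefore a background for reading and no test of the set. Each name matched 1 entry of the table, and all 10 were among the 15024 genes that passed the filter on low counts. The libraries came from bone marrow derived macrophages (BMDM) of C57BL/6 mice in an M0 or an M1 state, which had received a gapmer for 16 hours. That gapmer was directed at MERRICAL, a long noncoding RNA, in the groups called KD, and was labelled NS in the others. Gapmers are antisense oligonucleotides with a DNA centre, through which RNase H cuts the paired RNA. The 11 libraries were 2 of M1 KD, 3 of M1 NS, 3 of M0 KD and 3 of M0 NS. Their label numbers were 5 and 6 in M1 KD, and 1, 2 and 4 in the other groups. Whether these numbers mark a separate preparation of M1 KD is not stated. If they do, preparation and gapmer cannot be told apart in M1 KD against M1 NS or in the interaction. The comparison of M1 KD with M0 KD would be affected too. All groups share the strain and a gapmer. MERRICAL was not found in the count table under that name, so the extent of its knockdown in these libraries was not analysed here, and KD names the gapmer given. The M1 stimulus, the number of animals and the gapmer sequences are not stated in the labels. The labels do not say whether replicates were separate cultures. The p-values set group differences against the spread of libraries within groups, and that spread may be technical variation.

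In the integrated stress response, kinases that sense viral RNA, haem shortage, misfolded protein in the endoplasmic reticulum or amino acid shortage phosphorylate the translation factor eIF2. General protein synthesis then slows, while the Atf4 mRNA is translated better because of short upstream reading frames. ATF4 protein pairs with C/EBP proteins and raises genes for amino acid supply, for one-carbon metabolism and, under lasting stress, for cell death. Macrophages make ATF4 during inflammatory activation, when demand for serine, glycine and other amino acids is high. RNA counts do not show ATF4 translation or eIF2 phosphorylation.

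The letters TGATGNAA, the core of the C/EBP-ATF composite element that ATF4 dimers are known to bind, were searched on both strands in the RefSeq promoter windows of all members (GRCm38.p6, 250 bases before to 50 after the annotated start). All 10 members had a window, 3 of them held a match, and 3.97% of 32851 mouse windows of the same length did. The matches are shown, read 5′ to 3′ on the gene's strand with the matching letters in capitals. Whether these letters have a part in the levels of the members was not tested. The Chac1 stretch lies at chr2:119351023-119351082 on the plus strand, with the match starting 193 bases before the start. The Trib3 stretch lies at chr2:152344028-152344057 on the minus strand, with the match starting at base 15 of the RefSeq transcript. The Asns stretch lies at chr6:7693214-7693243 on the minus strand, with the match starting 23 bases before the start. These starts are those of RefSeq. By the GENCODE positions given below, the Trib3 match lies before the start of the gene and the Asns match lies within the gene.
Chac1: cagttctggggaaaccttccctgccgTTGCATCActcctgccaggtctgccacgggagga
Trib3: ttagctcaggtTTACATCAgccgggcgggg
Asns: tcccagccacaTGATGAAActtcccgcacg
Asns reads in the forward orientation of these letters, and Chac1 and Trib3 in the reverse complement. No match in the other 7 members says only that the letters are not in these windows.

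Total counts per library ran from 30040632 to 43250392. All 8 macrophage markers had counts in every group, and summed to 14307 to 17426 CPM in M1 KD, 13222 to 15622 CPM in M1 NS, 19204 to 20976 CPM in M0 KD and 25456 to 26791 CPM in M0 NS. Of these, Emr1, Mertk, Fcgr1 and Cd14 were called higher and Csf1r, Cd68 and Lyz2 lower in M1 NS against M0 NS, and Lyz2 alone averaged 5639 CPM in M1 NS, against 17459.6 CPM in M0 NS. In M1 KD against M1 NS, Cd68 and Fcgr1 were called higher and Emr1 and Itgam lower. The summed level of the 8 M1 markers, such as Nos2 and Il12b, was 14780 to 20423 CPM in M1 KD and 14607 to 16606 CPM in M1 NS, against 107 to 164 CPM in M0 KD and 98.7 to 188 CPM in M0 NS. The single M1 markers did not all stay level. In M1 KD against M1 NS 1 was called higher and 3 lower, with log2 fold changes from -2.13 to 1.08. Over all genes tested 17.6% were called higher and 19.2% lower there. In the interaction 0 M1 markers were called higher and 3 lower, against 13.1% and 14.2% of all genes. CPM is a library's count scaled by its size and TMM factor. Neutrophil and granulocyte precursor markers (15 genes) summed to 209 to 228 CPM in M1 KD, 243 to 316 CPM in M1 NS, 742 to 763 CPM in M0 KD and 1322 to 2310 CPM in M0 NS. Of that list all 15 had counts in every group. Without Lcn2, which averaged 151 CPM in M1 KD and 136 CPM in M1 NS, the other 14 summed to 41.4 to 93.4 CPM in M1 KD, 105 to 178 CPM in M1 NS, 693 to 714 CPM in M0 KD and 1227 to 2147 CPM in M0 NS, with no overlap between M1 KD and M1 NS. For 52.4% of all genes tested the ranges of these 2 groups did not overlap. The single markers went both ways. Of the 15, 2 were called higher, 4 lower and 9 not in M1 KD against M1 NS, with log2 fold changes from -2.19 to 2.82. Dendritic cell markers (6 genes, which include Ccr7, an activation gene of macrophages as well) summed to 131 to 610 CPM in M1 KD, 107 to 338 CPM in M1 NS, 6.45 to 12.8 CPM in M0 KD and 10.4 to 11.03 CPM in M0 NS. Lymphocyte markers (6 genes) summed to at most 1.001 CPM in any library, and stromal markers (6 genes) to at most 26.6 CPM, with Pdgfra at 0 in M1 KD. Mitochondrially encoded transcripts took 0.522 to 0.727% of counts in M1 KD, 0.488 to 0.891% in M1 NS, 1.28 to 1.45% in M0 KD and 1.02 to 1.14% in M0 NS. The part of these shifts in the results was not tested. In bulk RNA, fewer cells of a type and less RNA per cell cannot be told apart.

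**Figure D1:**
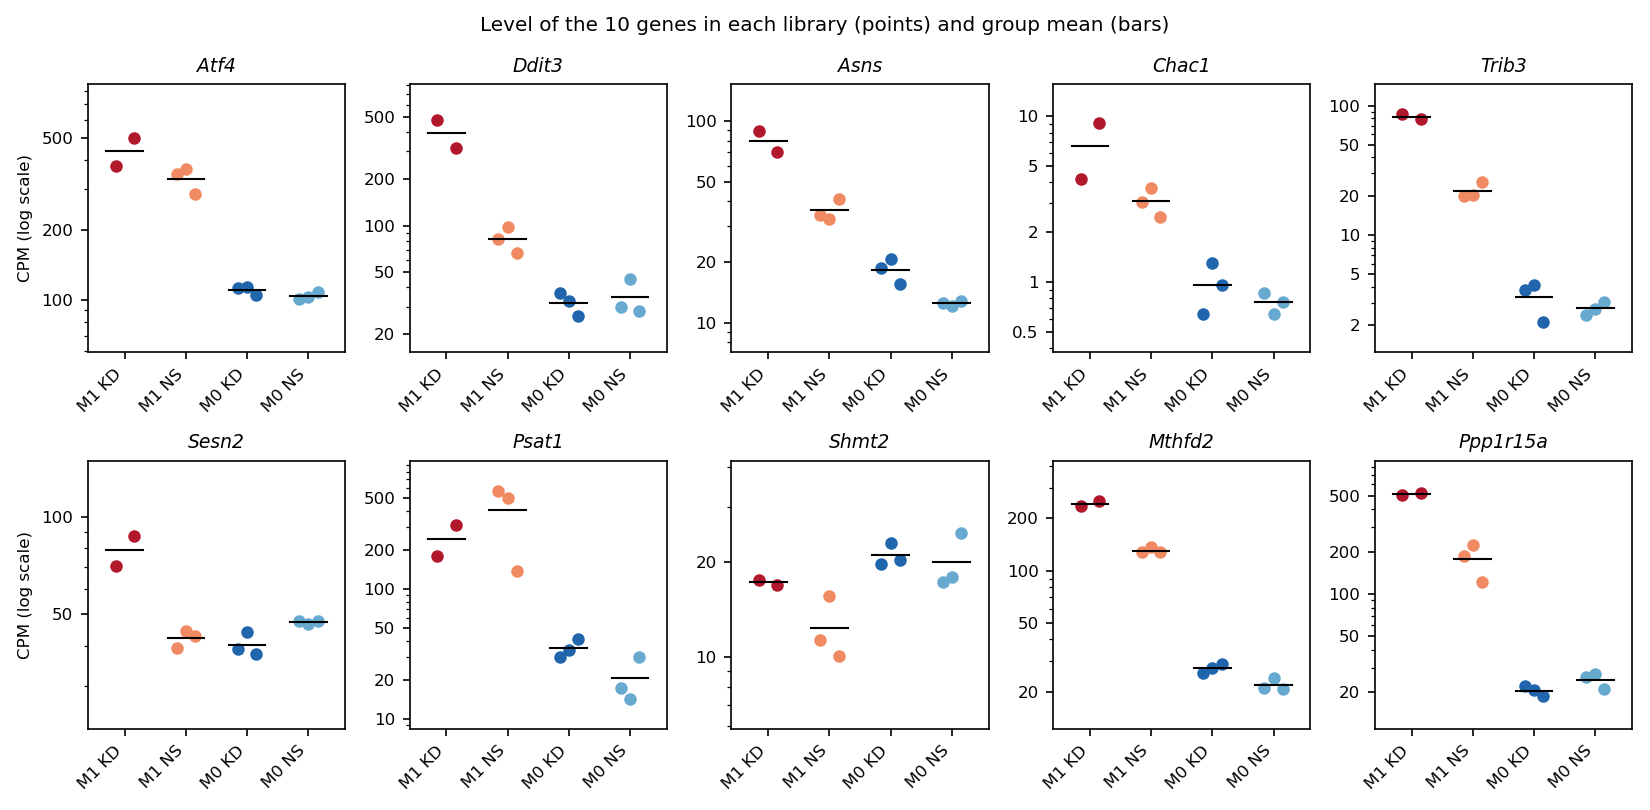
CPM of the 10 genes on a log axis, with 1 point per library and a bar at the group mean, for M1 KD (2 libraries), M1 NS, M0 KD and M0 NS (3 each). Atf4, Ddit3, Asns, Chac1, Trib3, Sesn2, Mthfd2 and Ppp1r15a were highest in both M1 KD libraries, Atf4 and Chac1 by a small margin. Psat1 was highest in 2 M1 NS libraries, and Shmt2 was lowest in M1 NS.

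Atf4 encodes the transcription factor at the centre of the response and lies on chromosome 15 of GRCm38 from 80255184 to 80257541 on the plus strand. It was at 379 and 501 CPM in M1 KD replicates 5 and 6, at 349, 367 and 287 CPM in M1 NS replicates 1, 2 and 4, at 112, 113 and 105 CPM in M0 KD replicates 1, 2 and 4, and at 101, 103 and 108 CPM in M0 NS replicates 1, 2 and 4. Every M1 library stood above every M0 library, and both M1 KD libraries stood above the 3 M1 NS libraries by a small margin. Ddit3 encodes CHOP, a C/EBP-family factor that ATF4 induces and that promotes cell death under lasting stress (chromosome 10, 127290774 to 127296288, plus strand). It was at 475 and 313 CPM in M1 KD, at 82.0, 97.6 and 66.5 CPM in M1 NS, at 36.9, 32.7 and 26.05 CPM in M0 KD and at 30.1, 45.1 and 28.3 CPM in M0 NS, in the same replicate order. The M1 KD libraries stood well apart from all others, and the M0 groups overlapped. Exons of Ddit3 overlap exons of Mars on the other strand over 68 bases, or 3.97% of the exon length of Ddit3, and share 105 bases with a second annotated entry of the same name. The strand setting of the counting is not stated, and Mars itself was at 0.48 (SE 0.13, adjusted p = 0.0162) on the log2 scale in M1 KD against M1 NS.

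Trib3 encodes a pseudokinase that ATF4 and CHOP induce and that restrains ATF4 activity (chromosome 2, 152337422 to 152344032, minus strand). It was at 85.9 and 78.8 CPM in M1 KD, at 19.9, 20.2 and 25.8 CPM in M1 NS, at 3.73, 4.10 and 2.11 CPM in M0 KD and at 2.42, 2.70 and 3.05 CPM in M0 NS. The groups formed 3 separate steps, M1 KD above M1 NS above both M0 groups, which overlapped. Ppp1r15a encodes GADD34, the subunit that directs a phosphatase to eIF2 and so ends the response (chromosome 7, 45522916 to 45526268, minus strand). It was at 508 and 517 CPM in M1 KD, at 185, 223 and 121 CPM in M1 NS, at 22.1, 20.8 and 18.8 CPM in M0 KD and at 25.6, 27.0 and 21.1 CPM in M0 NS. It had the same 3 steps as Trib3, with M1 NS replicate 4 the lowest of the M1 libraries.

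Asns encodes asparagine synthetase (chromosome 6, 7675169 to 7693254, minus strand). It was at 89.3 and 70.5 CPM in M1 KD, at 34.3, 32.8 and 41.1 CPM in M1 NS, at 18.7, 20.6 and 15.6 CPM in M0 KD and at 12.5, 12.1 and 12.8 CPM in M0 NS. None of the 4 groups overlapped another for this gene. Psat1 encodes the aminotransferase of serine synthesis (chromosome 19, 15904678 to 15947337, minus strand). It was at 179 and 309 CPM in M1 KD, at 569, 506 and 138 CPM in M1 NS, at 30.3, 33.8 and 41.4 CPM in M0 KD and at 17.3, 14.4 and 30.2 CPM in M0 NS. M1 NS replicate 4 was far below the other M1 NS libraries and below both M1 KD libraries, so the M1 groups overlapped. Psat1 had the widest spread in M1 NS of any member, with a mean of 404 ± 232 CPM (SD, n = 3).

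Shmt2 encodes the mitochondrial serine hydroxymethyltransferase, which moves a carbon unit from serine to folate (chromosome 10, 127517123 to 127522444, minus strand). It was at 17.5 and 16.9 CPM in M1 KD, at 11.3, 15.6 and 10.03 CPM in M1 NS, at 19.7, 23.1 and 20.2 CPM in M0 KD and at 17.3, 18.0 and 24.7 CPM in M0 NS. The M1 NS libraries were the lowest, and the other groups lay close to each other. Mthfd2 encodes the mitochondrial enzyme of the next steps of that folate cycle (chromosome 6, 83305691 to 83325908, minus strand). It was at 235 and 253 CPM in M1 KD, at 128, 136 and 127 CPM in M1 NS, at 25.5, 27.3 and 28.9 CPM in M0 KD and at 21.04, 24.1 and 20.8 CPM in M0 NS. The 4 groups did not overlap, and the spread within each was small. Shmt2 and Mthfd2, neighbours in a metabolic path, thus stood in opposite order between M1 NS and M0 NS.

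Chac1 encodes an enzyme that degrades glutathione (chromosome 2, 119351229 to 119354381, plus strand). It rested on only 24 to 251 counts per library and was at 4.17 and 9.18 CPM in M1 KD, at 3.05, 3.68 and 2.47 CPM in M1 NS, at 0.643, 1.30 and 0.953 CPM in M0 KD and at 0.861, 0.641 and 0.761 CPM in M0 NS. M1 libraries stood above M0 libraries, while M1 KD replicate 5 was close to M1 NS replicate 2. Sesn2 encodes sestrin 2, a leucine sensor that restrains the growth kinase complex mTORC1 (chromosome 4, 132492032 to 132510501, minus strand). It was at 70.6 and 87.4 CPM in M1 KD, at 39.3, 44.4 and 42.7 CPM in M1 NS, at 39.0, 44.1 and 37.7 CPM in M0 KD and at 47.6, 46.8 and 47.6 CPM in M0 NS. Only M1 KD stood apart by a wide margin; M1 NS and M0 KD overlapped.

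Per kilobase of exon (GENCODE M21 lengths), Atf4 had the highest mean level of the members in M1 NS (142 CPM per kilobase), in M0 KD (46.7) and in M0 NS (44.1). In M1 KD Ddit3 came first at 230.0 CPM per kilobase, before Atf4 at 187 and Ppp1r15a at 174. In M1 NS the next after Atf4 were Psat1 at 95.02, Ppp1r15a at 60.03 and Ddit3 at 47.9 CPM per kilobase. In both M0 groups Ddit3 was next, at 18.6 in M0 KD and 20.1 in M0 NS. Chac1 was the lowest member in every group, at 4.08 CPM per kilobase in M1 KD, 1.87 in M1 NS, 0.590 in M0 KD and 0.461 in M0 NS. Of the 9 pairs of neighbours in the order, the libraries overlapped for 4 in M1 KD, among them Ddit3 with Atf4 and Atf4 with Ppp1r15a, so the first places there are not set apart by the spread. They overlapped for 6 in M1 NS, which include each step of Atf4, Psat1, Ppp1r15a, Ddit3 and Mthfd2. In M0 KD the 5 genes Psat1, Mthfd2, Ppp1r15a, Shmt2 and Asns ran into each other (4 pairs), and in M0 NS the genes Ppp1r15a, Shmt2, Mthfd2, Psat1 and Asns did (4 pairs).

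M1 cells were set against M0 cells with the NS gapmer to see how the response differs between the states. Of the 10 members 8 rose and 1, Shmt2, fell, where 55.5% of all genes tested were called, 26.9% higher and 28.6% lower. Genes were called at an adjusted p under 0.05 with edgeR's quasi-likelihood test over all genes. The median log2 fold change of the members was 1.85, against -0.04 for all genes tested. Psat1 rose most, by 19.6-fold (log2 fold change 4.29, SE 0.49, adjusted p = 1.36e-05). The feedback genes Trib3 and Ppp1r15a followed, by 8.07-fold (3.01, SE 0.22, adjusted p = 3.69e-07) and 7.18-fold (2.84, SE 0.21, adjusted p = 3.10e-07). Mthfd2 rose by 5.94-fold (2.57, SE 0.11, adjusted p = 7.58e-09). Chac1 rose by 4.03-fold (2.01, SE 0.35, adjusted p = 0.000418), Atf4 by 3.21-fold (1.68, SE 0.14, adjusted p = 1.27e-06), Asns by 2.90-fold (1.53, SE 0.14, adjusted p = 2.60e-06) and Ddit3 by 2.38-fold (1.25, SE 0.23, adjusted p = 0.000517). Shmt2 fell to 12.3 ± 2.92 CPM in M1 NS, against 19.99 ± 4.07 CPM in M0 NS (SD, n = 3 each), at -0.70 on the log2 scale (SE 0.18, adjusted p = 0.00584). Sesn2 was at 42.1 ± 2.57 CPM in M1 NS and 47.3 ± 0.483 CPM in M0 NS and was not called (-0.17, SE 0.11, adjusted p = 0.234, and 0.00134 to 0.491 over the alternatives). Its direction turned to 0.17 (adjusted p = 0.295) when a trend in transcript length and GC content was removed, and it was called lower with library size as the only scaling (-0.55, adjusted p = 0.00134). CPM ranges of M1 NS and M0 NS did not overlap for any of the 10 members, nor for 61.4% of all genes tested. With library size as the only scaling the median of all genes was -0.42, and 8 members were called higher and 2 lower, the second being Sesn2.

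**Figure D2:**
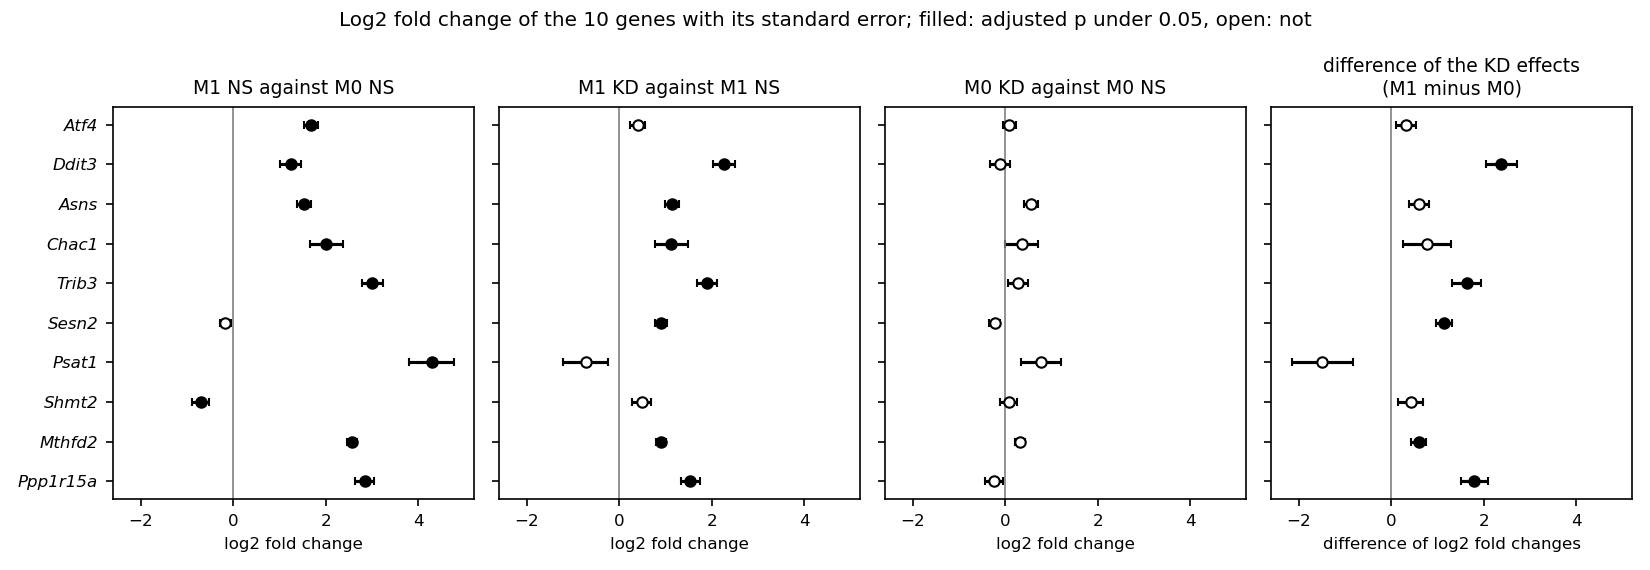
Log2 fold change of each of the 10 genes (points) with its standard error (bars) in 3 comparisons, and the difference of the KD effects in the right panel; filled points have an adjusted p under 0.05. Ddit3 had the largest rise in M1 KD against M1 NS (2.26) and Psat1 the largest in M1 NS against M0 NS (4.29), and no point is filled for M0 KD against M0 NS.

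M1 KD was set against M1 NS to compare M1 cells given the MERRICAL gapmer with those given the NS gapmer. Of the 10 members 7 rose and none fell, where 36.8% of all genes tested were called, 17.6% higher and 19.2% lower. The median log2 fold change of the members was 1.01, against 0.00103 for all genes tested. Ddit3 rose most, to 394 ± 115 CPM in M1 KD, against 82.0 ± 15.6 CPM in M1 NS (SD, n = 2 and 3; 4.80-fold, log2 fold change 2.26, SE 0.25, adjusted p = 5.43e-05). Trib3 rose 3.74-fold, to 82.3 ± 5.03 CPM in M1 KD, against 22.0 ± 3.29 CPM in M1 NS (1.90, SE 0.22, adjusted p = 7.30e-05). Ppp1r15a rose 2.91-fold, to 512 ± 6.61 CPM in M1 KD, against 176 ± 51.4 CPM in M1 NS (1.54, SE 0.21, adjusted p = 0.000220). These 3 genes act downstream of ATF4 in cell death and in feedback on the response.

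Among the metabolic members, Asns rose 2.21-fold (1.15, SE 0.15, adjusted p = 0.000193) and Mthfd2 1.87-fold (0.90, SE 0.12, adjusted p = 0.000167) in M1 KD against M1 NS. Sesn2 also rose 1.87-fold (0.91, SE 0.13, adjusted p = 0.000243). Shmt2 was at 17.2 ± 0.426 CPM in M1 KD and 12.3 ± 2.92 CPM in M1 NS and was not called (0.49, SE 0.20, adjusted p = 0.0772); without M1 NS replicate 2 it was called higher (0.69, adjusted p = 0.0134, with 0.0134 to 0.234 over the alternatives). Psat1 was at 244 ± 91.6 CPM in M1 KD and 404 ± 232 CPM in M1 NS and was not called (-0.73, SE 0.49, adjusted p = 0.264). Without M1 NS replicate 4, the library with the low Psat1 value, Psat1 was called lower (-1.10, adjusted p = 0.0264), and it was also called lower with no filter on low counts (-0.72, adjusted p = 0.00147), with 0.00147 to 0.692 over the alternatives. It was the only member with a log2 fold change below 0 in this comparison, and the only member whose M1 KD and M1 NS ranges overlapped; ranges did not overlap for 52.4% of all genes tested.

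Atf4 itself was at 439.9 ± 86.2 CPM in M1 KD and 334 ± 42.1 CPM in M1 NS and was not called (0.40, SE 0.16, adjusted p = 0.0644). It was called with the DESeq2 Wald test (0.43, adjusted p = 0.0340), without M1 NS replicate 2 (0.47, adjusted p = 0.0453) and without M1 KD replicate 5 (0.58, adjusted p = 0.0315); over all alternatives its adjusted p ran from 0.0315 to 0.473. Its log2 fold change was 0.16 with the trend in transcript length and GC content removed. Chac1 rose 2.17-fold (1.12, SE 0.36, adjusted p = 0.0282). That call was lost without M1 KD replicate 6 (0.44, adjusted p = 0.426), without M1 NS replicate 1 (1.12, adjusted p = 0.0691), without M1 NS replicate 4 (1.02, adjusted p = 0.0563), with the 5 M1 libraries alone (1.15, adjusted p = 0.0529) and with the length and GC trend removed (0.85, adjusted p = 0.0666), and its adjusted p ran from 0.00429 to 0.426. The 2 M1 KD libraries did not rank alike for all members. Replicate 5 was higher for Ddit3, Asns, Trib3 and Shmt2, and replicate 6 for Atf4, Chac1, Sesn2, Psat1, Mthfd2 and Ppp1r15a.

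M0 KD was set against M0 NS for the same comparison in M0 cells. None of the 10 members was called in the filtered edgeR fit of all 11 libraries, as for all genes (0%). At an unadjusted p under 0.05 there were 2 members, Asns and Mthfd2, and 1947 of the 15024 genes tested, or 13.0%. The median log2 fold change of the members was 0.18, against 0.00343 for all genes. Asns, which showed the smallest p of the members, was at 18.3 ± 2.55 CPM in M0 KD and 12.5 ± 0.314 CPM in M0 NS (SD, n = 3 each; 0.55, SE 0.14, adjusted p = 0.224). It was called with the DESeq2 Wald test (0.54, adjusted p = 0.0423), which called 1.47% of genes, and with the 6 M0 libraries alone (0.56, adjusted p = 0.0302), which called 8.06% of genes, and its adjusted p ran from 0.0302 to 0.581. No other member was called in either, and limma-voom called no member. Psat1 was called higher only with no filter on low counts (0.75, adjusted p = 0.00211, with 0.00211 to 0.721 over the alternatives). Ddit3, Trib3 and Ppp1r15a had log2 fold changes of -0.11 (SE 0.22, adjusted p = 0.837), 0.28 (SE 0.22, adjusted p = 0.578) and -0.25 (SE 0.19, adjusted p = 0.560), and Atf4 of 0.08 (SE 0.14, adjusted p = 0.805). CPM ranges did not overlap for 4 members, with Asns, Psat1 and Mthfd2 above and Sesn2 below, and for 35.1% of all genes tested. All 15 neutrophil and granulocyte precursor markers had log2 fold changes below 0 here (median -1.22, none called), and the part of this shift in the members' values was not tested.

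The difference between the KD effects in M1 and in M0 was tested as an interaction. Ddit3, Trib3, Sesn2, Mthfd2 and Ppp1r15a were called, all with the larger log2 fold change in M1, so that 5 of 10 members were called higher where 13.1% of all genes tested were (27.3% in either direction, 14.2% lower). The difference of log2 fold changes was 2.38 for Ddit3 (SE 0.33, adjusted p = 0.000547), 1.79 for Ppp1r15a (SE 0.29, adjusted p = 0.00115), 1.63 for Trib3 (SE 0.31, adjusted p = 0.00305), 1.14 for Sesn2 (SE 0.17, adjusted p = 0.000745) and 0.59 for Mthfd2 (SE 0.16, adjusted p = 0.0181). With the length and GC trend removed 5 members were still called. Trib3 was then at 1.07 (adjusted p = 0.0498) and Sesn2 at 0.72 (adjusted p = 0.0205). The trend in M1 KD against M1 NS was above 0 for every member, from 0.0691 for Ddit3 to 0.29 for Trib3. The Mthfd2 call was lost without M0 NS replicate 2 (0.52, adjusted p = 0.0553), without M0 KD replicate 1 (0.55, adjusted p = 0.0566), without M1 KD replicate 6 (0.54, adjusted p = 0.0542) and with no filter on low counts (0.62, adjusted p = 0.0658), and its adjusted p ran from 0.00139 to 0.0658. Asns missed the threshold (0.59, SE 0.21, adjusted p = 0.0544) and passed without M1 NS replicate 4 (adjusted p = 0.0156), without M1 KD replicate 6 (0.0327), without M0 KD replicate 2 (0.0481), with median-of-ratios factors (0.0376) and with DESeq2 (0.0256), in a range of 0.0156 to 0.231. Psat1 had a difference of -1.50 (SE 0.66, adjusted p = 0.112), and was called without M1 NS replicate 4 (-1.86, adjusted p = 0.00987) and with no filter on low counts (-1.47, adjusted p = 3.39e-07), in a range of 3.39e-07 to 0.337. Atf4 (0.31, SE 0.21, adjusted p = 0.292), Chac1 (0.77, SE 0.51, adjusted p = 0.290) and Shmt2 (0.42, SE 0.27, adjusted p = 0.277) were not called.

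Under the MERRICAL gapmer, M1 KD was set against M0 KD, and 9 of 10 members rose and none fell, where 58.3% of all genes tested were called, 26.9% higher and 31.4% lower. This comparison shares the M1 KD libraries with that of M1 KD against M1 NS. Trib3 rose 24.9-fold (log2 fold change 4.64, SE 0.24, adjusted p = 3.49e-08), Ppp1r15a 24.9-fold (4.64, SE 0.23, adjusted p = 2.64e-08) and Ddit3 12.4-fold (3.63, SE 0.26, adjusted p = 3.10e-07). Sesn2, which was not called between M1 NS and M0 NS, rose 1.96-fold (0.97, SE 0.13, adjusted p = 3.49e-05). Shmt2 was at 17.2 ± 0.426 CPM in M1 KD and 20.996 ± 1.80 CPM in M0 KD and was not called (-0.28, SE 0.20, adjusted p = 0.249). It was called lower with library size as the only scaling (-0.77, adjusted p = 0.00647), under which the median of all genes was -0.59, and with the length and GC trend removed (-0.54, adjusted p = 0.00474), in a range of 0.00474 to 0.460. The ranges of M1 KD and M0 KD did not overlap for any of the 10 members, nor for 74.9% of all genes tested.

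Further genes of the pathway were counted in 7 lists, to be read against the 26.9% of all genes called higher and 28.6% called lower between M1 NS and M0 NS. Between M1 NS and M0 NS, 7 of 10 amino acid transporter genes rose and 1 fell (median log2 fold change 1.32), with Slc7a1, a carrier of arginine and lysine, at 1.98 and the glutamine carrier gene Slc1a5 at -1.93. With library size as the only scaling 4 rose and 1 fell. Of 14 aminoacyl-tRNA synthetase genes 8 rose and none fell (median 0.37), led by Aars (1.93) and Wars (2.38); Wars is also an interferon-induced gene. Of 12 tested genes of amino acid synthesis and one-carbon metabolism 4 rose and 1 fell (median 0.05), and Mthfd1l, a mitochondrial folate enzyme, rose by 1.595 while the cytosolic Mthfd1 fell (-0.997). Of 19 genes of the kinases, eIF2, eIF2B and the phosphatase 10 rose and 3 fell (median 0.34). Ppp1r15b, which encodes the constitutive counterpart of GADD34, rose by 2.25, and Eif2ak3, which encodes the endoplasmic reticulum stress kinase PERK, fell (-1.14). That split is set by the scaling, since 2 rose and 6 fell with library size only. Of 12 ATF and C/EBP factors 4 rose and 2 fell (median -0.01), with Jdp2 at 4.55 and Cebpa at -3.83. Of 17 tested stress, growth and death targets 6 rose and 7 fell (median -0.48), with Nupr1, a stress-induced chromatin protein gene, at 3.45 and Sesn1 at -5.31. Of 10 genes of the IRE1 and ATF6 arms of the unfolded protein response 5 rose and none fell (median 0.54), led by Hyou1 (1.14) and Creld2 (1.22).

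**Figure D3:**
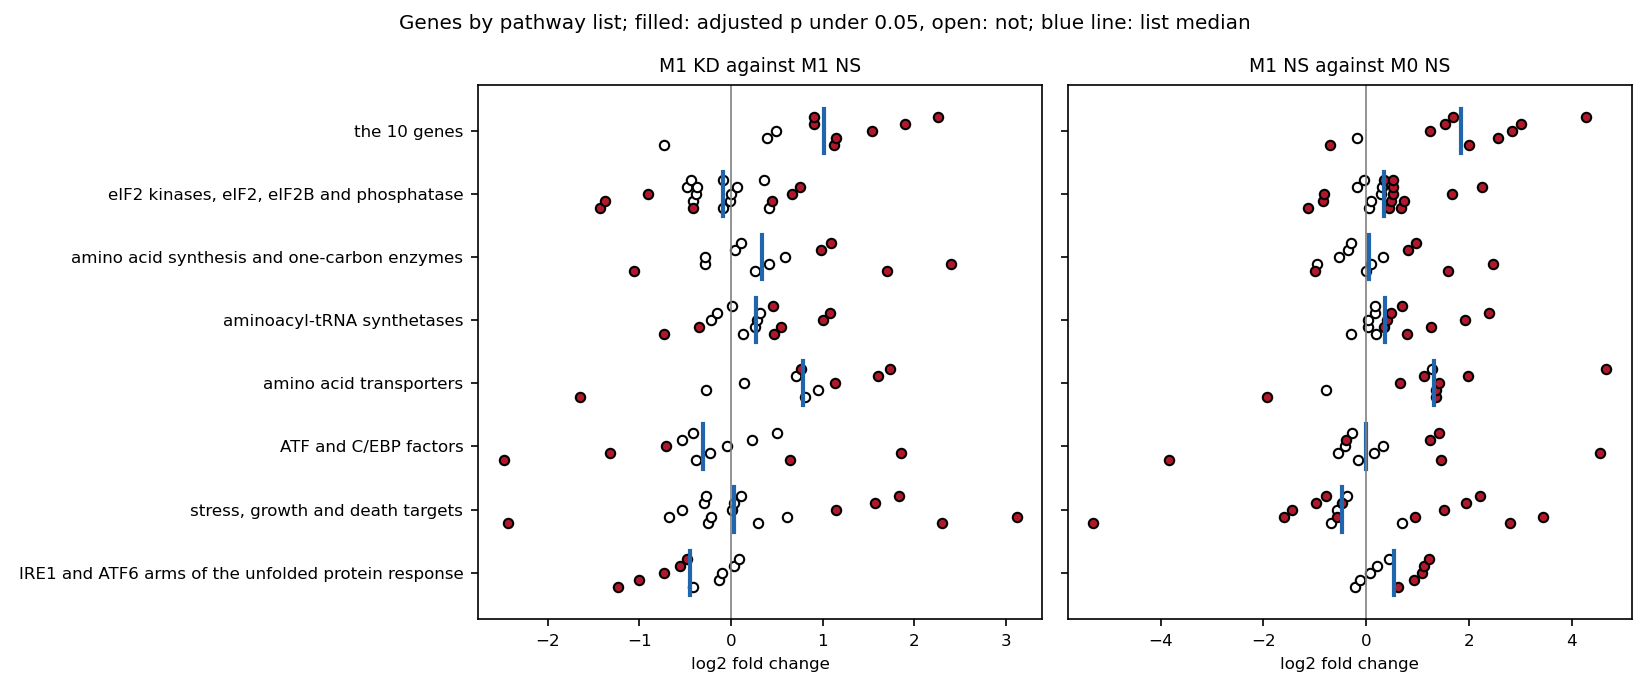
Log2 fold change of every tested gene of the 10 members and the 7 pathway lists (points; filled with an adjusted p under 0.05) and the list median (blue line), for M1 KD against M1 NS on the left and M1 NS against M0 NS on the right. In M1 KD against M1 NS the median is 1.01 for the 10 genes and -0.45 for the IRE1 and ATF6 list.

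Between M1 KD and M1 NS, where 17.6% of all genes were called higher and 19.2% lower, the lists did not move together. The IRE1 and ATF6 list, whose genes serve protein folding in the endoplasmic reticulum, had 0 of 10 genes higher and 5 lower (median -0.45). The chaperone gene Hyou1 fell to 119 ± 0.527 CPM in M1 KD, against 280.02 ± 14.8 CPM in M1 NS (SD, n = 2 and 3; -1.23, SE 0.16, adjusted p = 0.000152), and the factor gene Xbp1 fell as well (-0.56, SE 0.13, adjusted p = 0.00534), a call lost with the 5 M1 libraries alone (adjusted p = 0.0847). Sdf2l1 (-1.0004), Hsp90b1 (-0.73) and Hspa5, which encodes the chaperone BiP (-0.48), were the other genes called lower. Only 2 of this list were called lower without M1 KD replicate 5, and 2 with the 5 M1 libraries alone. Leaving out M1 NS replicate 1 or replicate 2 also ended the Hspa5 call, at adjusted p of 0.0957 and 0.0546. The stress, growth and death targets had 5 of 17 tested genes higher and 1 lower (median 0.03). Bbc3, the gene of the death protein PUMA, rose by 1.83 (SE 0.14, adjusted p = 5.83e-06) to 71.3 ± 2.92 CPM in M1 KD, against 19.99 ± 2.25 CPM in M1 NS. Gdf15 (3.12), Ddit4 (2.30), Vegfa (1.58) and Sqstm1 (1.14) were the other rises. Gdf15 was at 266 and 88.6 CPM in M1 KD replicates 5 and 6 and at 16.4 to 25.2 CPM in M1 NS. Without M1 KD replicate 5 Ddit4 was at 1.32 (adjusted p = 0.0165), and Sqstm1 was no longer called (0.67, adjusted p = 0.0841). Trib1, a relative of Trib3, fell (-2.43, SE 0.27, adjusted p = 5.90e-05).

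The amino acid lists had a mixed response in M1 KD against M1 NS, with shares of called genes to be read against 36.8% over all genes. Of 10 amino acid transporter genes 4 rose and 1 fell (median 0.79). Slc3a2, the shared chain of several amino acid exchangers, rose by 1.601 (SE 0.20, adjusted p = 0.000134) and Slc38a2, a carrier of small neutral amino acids, by 1.14 (SE 0.17, adjusted p = 0.000403). Slc6a9 (1.73) and Slc7a1 (0.77) rose too, and Slc7a11, which imports cystine, was the gene that fell (-1.65, SE 0.52, adjusted p = 0.0271). Slc7a11 was at 265 and 131 CPM in M1 KD, against 384, 313 and 1167 CPM in M1 NS replicates 1, 2 and 4, and its call was lost without M1 NS replicate 4 (-0.78, adjusted p = 0.0992) and without M1 KD replicate 6 (-1.24, adjusted p = 0.196). The Slc6a9 call was lost without M1 KD replicate 5 (0.95, adjusted p = 0.146). Of 12 tested genes of amino acid synthesis and one-carbon metabolism 4 rose and 1 fell (median 0.34). Got1, the cytosolic aspartate aminotransferase gene, rose by 1.71 (SE 0.20, adjusted p = 9.44e-05), and Phgdh (2.40, SE 0.42, adjusted p = 0.00103), Psph (0.98) and Gpt2 (1.09) rose as well. Phgdh was at 28.04 and 8.996 CPM in M1 KD replicates 5 and 6, against 2.997, 2.57 and 4.90 CPM in M1 NS, and was at 1.35 (adjusted p = 0.0238) without M1 KD replicate 5. Phgdh and Psph encode the enzymes before and after PSAT1 in serine synthesis, and Psat1 was not called. Mthfd1l fell (-1.06, SE 0.14, adjusted p = 0.000157). Of 14 aminoacyl-tRNA synthetase genes 5 rose and 2 fell (median 0.27), with Sars at 1.09 and Cars at 1.001. The other calls were Wars (0.55), Mars (0.48) and Aars (0.46) higher and Iars (-0.73) and Hars (-0.35) lower. The Hars call was lost whichever M1 library was left out (adjusted p = 0.0523 to 0.262), and the Wars call also without M1 NS replicate 4 (adjusted p = 0.0511). Only 2 were called higher and 1 lower with the 5 M1 libraries alone, without M1 NS replicate 1 or without M1 KD replicate 5, and Sars was at 0.68 (adjusted p = 0.0116) without the last.

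Among the regulators, Cebpb, which encodes a binding partner of ATF4, rose to 536 ± 35.02 CPM in M1 KD, against 149 ± 15.9 CPM in M1 NS (1.85, SE 0.18, adjusted p = 2.17e-05). Nfe2l2 (0.64) was the other rise among 12 ATF and C/EBP factors, and Cebpd (-2.48), Cebpg (-1.32) and Atf7 (-0.71) fell (median -0.30). Without M1 KD replicate 5 this list had 3 genes called higher and 5 lower, and without M1 NS replicate 4 Cebpg was at -0.87 (adjusted p = 0.000781). Of 19 genes of the kinases, eIF2, eIF2B and the phosphatase 3 rose and 4 fell (median -0.09), shares like the 17.6% and 19.2% over all genes. Gcn1l1, whose product activates the amino acid sensing kinase, fell (-1.43, SE 0.16, adjusted p = 5.39e-05). Eif2s3x, a subunit gene of eIF2, fell as well (-1.37, SE 0.16, adjusted p = 7.60e-05). Its value is uncertain because it has a related gene, Eif2s3y, and how the counting treated shared reads is not stated. Ppp1cc (-0.90) and Eif2b5 (-0.42, a call that held only without M1 KD replicate 5 among the 5 fits with an M1 library left out) were the other genes called lower, and Impact (0.75), Eif2b2 (0.67, lost without M1 KD replicate 5 at an adjusted p of 0.0892) and Eif2ak1 (0.45) the genes called higher. The kinase genes Eif2ak2 (-0.42, adjusted p = 0.244), Eif2ak3 (-0.09, adjusted p = 0.707) and Eif2ak4 (0.07, adjusted p = 0.813) were not called. In M0 KD against M0 NS no gene of the 7 lists was called in the filtered edgeR fit of all 11 libraries, nor with limma-voom. With the 6 M0 libraries alone, 2 eIF2 pathway, 2 synthetase and 2 transporter genes were called higher, 3 ATF and C/EBP factors lower, and 1 stress target in each direction. That fit called 8.06% of all genes tested. With no filter on low counts 2 ATF and C/EBP factors, 1 stress target and 1 gene of the IRE1 and ATF6 list were called lower, and with DESeq2 1 ATF or C/EBP factor and 1 stress target. Over all genes the fit with no filter called 385, and DESeq2 called 221 (1.47%). The list medians were -0.14 to 0.21, the highest that of amino acid synthesis and one-carbon genes.

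Likeness to Atf4 was measured over the 4 groups, as the root mean square difference of the group means of log2 CPM after centring each gene, among the 8321 genes whose log2 CPM averaged 3 or more. The 5 most alike were Bfar (0.06), Prpf38a (0.06), Lrrc16a (0.07), Phlpp1 (0.07) and Pdzd11 (0.08). Atf4 stood at 1.11 in M1 KD, 0.72 in M1 NS, -0.87 in M0 KD and -0.96 in M0 NS on that centred scale. The member most like it was Asns, at a difference of 0.31 and rank 322, followed by Mthfd2 (0.56, rank 1131) and Ddit3 (0.73, rank 2156). Trib3 (1.14, rank 5595) and Shmt2 (1.16, rank 5760) were the least alike among the 8 other members with that level, and Chac1 was below it. The measure counts the size of a change as well as its pattern. Trib3 had the group order of Atf4 with wider steps, at 2.87 in M1 KD, 0.96 in M1 NS, -1.80 in M0 KD and -2.03 in M0 NS. Shmt2 had another order, at 0.01, -0.50, 0.29 and 0.20 in the same groups.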

How the data were processed

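Per the submitters' processing notes, the tools were STAR 2.5.2b, Trimmomatic 0.36 and Subread 1.5.2 (featureCounts), with the mouse build GRCm38. The annotation, the strand setting and the treatment of shared reads were not given in the sources used here. The deposited table holds whole-number raw counts for 11 libraries. Its 1 blank-named row, at most 0.000305% of counts, was left out, and the authors' normalized table was not used. Differential expression used edgeR 4.0.16 in R 4.3.3: filterByExpr (minimum count 10, minimum total 15), TMM factors, and 1 quasi-likelihood fit over all 11 libraries with a coefficient per group and the robust option. P-values were adjusted by Benjamini-Hochberg over 15024 genes and called under 0.05. The standard error is the log2 fold change divided by the root of F, and CPM refers to counts of tested genes. The members and lists were chosen with earlier results of these data known. Named were all members and, per list and comparison, the 2 called genes of smallest p; further list genes, Gdf15 and Phgdh among them, were chosen after their values were seen. Alternatives were DESeq2 1.42.0, limma-voom (limma 3.58.1), other scaling, no filter, the robust option off, fewer groups, a replicate block, libraries left out in turn and, added after seeing the data, removal of a length and GC trend (98.2% of genes had values) and leaving out libraries for all called list genes. The procedure was tested on simulated data. Of 9 same-numbered pairs of libraries among M0 KD, M0 NS and M1 NS, 2 had deviations correlated above 0.1. Both were pairs of M0 NS with M0 KD, so a pairing of the M0 libraries is not settled. The numbers were not taken to pair libraries in the main fit. No replicate pair was alike within sampling noise. Positions and exon lengths are from GENCODE M21, and promoters from RefSeq.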

Additional observations from a re-analysis of the deposited data

Results flagged for a closer look

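For 5 of 10 members the log2 fold change of KD against NS differed between M1 and M0 cells by the interaction test, with edgeR's adjusted p under 0.05. Over all genes tested 27.3% were called, 13.1% higher and 14.2% lower. A separate preparation of M1 KD, if there was one, cannot be told apart from the gapmer here. The difference of log2 fold changes, M1 minus M0, was 2.38 for Ddit3, 1.79 for Ppp1r15a, 1.63 for Trib3, 1.14 for Sesn2 and 0.59 for Mthfd2. The lists had 2 higher and 4 lower of 19 eIF2 pathway genes, 4 and 1 of 12 synthesis genes, and 3 and 1 of 14 synthetases. They had 3 and 0 of 10 transporters, 2 and 3 of 12 ATF and C/EBP factors, 6 and 1 of 17 stress targets, and 0 and 2 of 10 IRE1 and ATF6 genes. The named pathway genes were the 2 called genes of smallest p in each list. Among them, positive differences were found for Cebpb (2.58, adjusted p = 6.62e-05), Bbc3 (2.35, adjusted p = 3.67e-05), Slc6a9 (2.26, adjusted p = 0.0139), Got1 (1.87, adjusted p = 0.000708), Slc3a2 (1.73, adjusted p = 0.00108) and Cars (0.82, adjusted p = 0.00535). Negative differences were found for Trib1 (-2.32, adjusted p = 0.000629), Eif2s3x (-1.52, adjusted p = 0.000452), Mthfd1l (-1.35, adjusted p = 0.000436), Gcn1l1 (-1.27, adjusted p = 0.00114), Hyou1 (-1.11, adjusted p = 0.00261), Iars (-1.07, adjusted p = 0.00101), Hsp90b1 (-0.86, adjusted p = 0.0356) and Atf7 (-0.83, adjusted p = 0.00643). The Slc6a9 call was lost without M1 KD replicate 5 (1.48, adjusted p = 0.0965). The Hsp90b1 call was lost in 10 of 18 alternatives, with an adjusted p of up to 0.153, and the Mthfd2 call in 4.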

How the results depend on the processing

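Of 740 values for members under an alternative, 704 kept their direction and their side of the threshold. The signs that turned all belonged to uncalled members. In M0 KD against M0 NS, with a library left out, Shmt2 ran from -0.0214 (without M0 NS replicate 1) to 0.249 (without M0 NS replicate 4) and was also below 0 without M0 NS replicate 2 (-0.00112) and M0 KD replicate 2 (-0.00181), and Ddit3 ran from -0.238 (without M0 NS replicate 4) to 0.13 (without M0 NS replicate 2) and was at 0.0151 without M0 KD replicate 4. With the length and GC trend removed, Sesn2 was at 0.17 in M1 NS against M0 NS, and the difference of the KD effects was -0.0985 for Atf4 and -0.0497 for Shmt2. Called members numbered 9 in M1 NS against M0 NS and 9 in M1 KD against M0 KD with any library left out, 6 to 9 in M1 KD against M1 NS (6 without M1 NS replicate 1 or M1 KD replicate 6, 9 without M1 NS replicate 2), 4 to 7 for the difference of effects and 0 in M0 KD against M0 NS, where 1 member was called with no filter, with DESeq2 and with the 6 M0 libraries alone. Over all genes, M0 KD against M0 NS gave 0 calls, and 385 with no filter, 221 with DESeq2 and 1103 with the 6 M0 libraries alone. M1 NS against M0 NS gave 8338 calls over all genes, and 7261 to 8633 with a library left out. M1 KD against M0 KD gave 8755, and 7485 to 8027 with a library left out. The difference of effects gave 4095, and 2949 to 4751 with a library left out. M1 KD against M1 NS gave 5535, and 3104 with the 5 M1 libraries alone and 3658 to 5796 with a library left out, lowest without M1 KD replicate 5. The cause was not tested. Of 518 list counts 42 moved by more than 1.5 times, and 12 of 826 values of named pathway genes lost their call, 10 of them for Hsp90b1 in the difference of effects (adjusted p up to 0.153). The replicate block called 9 members in M1 NS against M0 NS and 0 in M0 KD against M0 NS (8048 and 0 genes). The label numbers are not known to pair libraries. Of 9 same-number pairs 2 had deviations correlated above 0.1 (-0.11 to 0.14, and -0.14 to 0.17 for other pairs). Both were pairs of M0 NS with M0 KD (0.14 for number 1 and 0.12 for number 4). Number 2 was at 0.02 there, and pairs of unlike numbers ran from -0.13 to 0.03, so pairing of the M0 libraries is not settled. Chac1, at 24 to 251 counts, is the member most limited by depth.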
